A study of Rattus norvegicus with 6 samples.

Results

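The genes described here encode cardiac transcription factors and class II histone deacetylases (HDACs), measured in cultured rat heart muscle cells exposed to isoproterenol, an agonist of beta-adrenergic receptors. They were chosen by name: Gata4, Gata6, Nkx2-5, Tbx5, Tbx20, Hand2, Mef2a, Mef2c, Hdac5 and Hdac9. A gene was included when the authors' mRNA table held a row whose RefSeq transcript belonged to it. This gave 8 of the 10 genes, each with 1 row, among 20734 rows and 19931 genes. Tbx20 and Mef2c had no row named in this way and were not analysed here.

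The isoproterenol group held 3 samples given 10 µM isoproterenol for 24 h, and the control group held 3 untreated samples. Both groups were ventricular cardiomyocytes of newborn Sprague-Dawley rats aged 1 to 3 days, whose fibroblasts had been reduced by letting them attach to a flask first, and both were kept in serum-free medium before the experiment. The labels also mention passages, and the series text transfection, although the protocols describe primary cells and a drug. No label says which litter or culture a replicate came from, so p-values measure only the spread between these samples, which may be technical. RNA came from whole cultures, so fewer cells of a type and less RNA per cell cannot be told apart.

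GATA, NK2 homeobox, T-box, HAND and MEF2 proteins bind DNA next to one another at the regulatory regions of cardiac genes and are required for heart development. In the postnatal heart they also take part in the gene programme of cardiomyocyte growth. Class IIa HDACs, among them Hdac5 and Hdac9, bind MEF2 proteins and repress their targets. When kinases phosphorylate these HDACs, 14-3-3 proteins bind them and they leave the nucleus, which frees MEF2.

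The promoter windows of Mef2a, Hdac5 and Hand2 are shown. Among the windows on hand for the listed genes, they hold a match to the MEF2 consensus or the GATA core. RefSeq sequences of rat assembly GRCr8 run from 250 bases before to 50 bases after the annotated start, read along the gene's strand. The Mef2a window is chr1:130392113-130392412 on the minus strand, with a match to the MEF2 consensus in capitals that begins at position -40 from the start. The Hdac5 window is chr10:87688005-87688304 on the minus strand, with a MEF2 consensus match in capitals that begins at -52. The Hand2 window is chr16:37931439-37931738 on the minus strand, with the reverse complement of the GATA core AGATAA in capitals, beginning at -172.
Mef2a promoter: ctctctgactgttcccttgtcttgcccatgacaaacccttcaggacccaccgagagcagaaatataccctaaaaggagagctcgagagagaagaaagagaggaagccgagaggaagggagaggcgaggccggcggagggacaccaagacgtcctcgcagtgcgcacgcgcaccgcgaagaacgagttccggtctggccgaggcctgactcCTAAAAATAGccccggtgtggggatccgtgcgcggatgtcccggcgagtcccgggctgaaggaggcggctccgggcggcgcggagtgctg
Hdac5 promoter: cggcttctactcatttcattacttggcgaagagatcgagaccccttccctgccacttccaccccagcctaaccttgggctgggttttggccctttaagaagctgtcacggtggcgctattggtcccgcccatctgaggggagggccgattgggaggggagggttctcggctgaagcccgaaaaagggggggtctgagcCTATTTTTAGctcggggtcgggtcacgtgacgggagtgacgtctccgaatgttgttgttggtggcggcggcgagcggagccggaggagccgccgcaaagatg
Hand2 promoter: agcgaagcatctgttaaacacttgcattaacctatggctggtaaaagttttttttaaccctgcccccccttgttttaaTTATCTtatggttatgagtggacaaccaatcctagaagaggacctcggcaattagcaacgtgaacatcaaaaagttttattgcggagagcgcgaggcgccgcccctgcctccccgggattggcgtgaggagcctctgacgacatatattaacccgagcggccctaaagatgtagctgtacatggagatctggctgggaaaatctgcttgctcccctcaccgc
Both strands of 33469 promoters of this length were searched. The MEF2 consensus was found in 3.29% of all promoters, and in 2 of the 8 windows on hand for the listed genes. No window was on hand for Gata4 or Mef2c, so these genes were not searched. The 8 windows include that of Tbx20, whose mRNA was not analysed here. The GATA core AGATAA was found in 11.6% of all promoters and in 1 of these 8 windows. The core TGACG of the cAMP response element, which binds factors that act downstream of beta-adrenergic receptors, was found in 21.2% of all promoters and in 4 of the 8 windows, those of Hand2, Hdac5, Nkx2-5 and Tbx20. The full element TGACGTCA was in 1.83% of all promoters and in 0 of the 8 windows. The E-box CANNTG, the kind of site that HAND factors bind, was in 72.1% of all promoters and in 5 of the 8 windows. The T-box core AGGTGTGA and the CArG box were in 1.10% and 1.64% of all promoters and in 0 of the 8 windows. A match of letters is a description of the window and does not show that a factor binds there.

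Signals are given as log2 of the scanner signal relative to the 75th percentile of the same array, so a gene at 0 was as bright as that percentile, and values of different genes are not set against each other. A gene was said to have changed when its adjusted p in limma, a linear model fitted over 19913 genes, was under 0.05. The arrays lay on 2 slides, told apart by scan times and array positions in the file headers. Isoproterenol replicate 1 and control replicates 1 to 3 were on slide 1, and isoproterenol replicates 2 and 3 were on slide 2. Between 97.7% and 99.8% of mRNA rows were well above background on the slide 1 arrays, against 61.3% and 70.9% on the slide 2 arrays. The median negative-control signal was 87 and 84 scanner units on slide 2, and 27 to 30 on slide 1. Slide and treatment therefore partly coincide, and the change of each of the 8 genes is given also within slide 1. There 1 isoproterenol array stands against 3 control arrays and is assumed to vary as they do. A fit with slide as a block allows each slide its own level. Slide 2 holds no control, so that fit takes its change from the slide 1 arrays alone. Results with the block therefore also rest on 1 isoproterenol array and are no check apart from slide 1.

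All 8 cardiomyocyte markers looked up were well above background on every array. Their summed signal was 1868 to 3174 times the 75th percentile in isoproterenol arrays and 1513 to 1815 times in control arrays. Within the isoproterenol group, replicate 1 on slide 1 gave 1868, and replicates 2 and 3 on slide 2 gave 3174 and 3024. Of the 8, 1 rose (Myh6) and 7 did not pass, with a median log2 change of 0.40, and 0.10 within slide 1. Pln, among the 7, lay below the controls on all isoproterenol arrays. Its change was -0.82, with an adjusted p of 0.0535 in limma, and -1.24 within slide 1. The summed signal of 6 measured smooth muscle and pericyte markers was 217 to 498 times in isoproterenol arrays and 83.5 to 149 times in control arrays. Of these 6, Acta2 and Tagln rose and 4 did not pass. The log2 changes of these 4 were -0.27 for Myh11, -0.16 for Pdgfrb, 0.18 for Rgs5 and 1.07 for Cspg4. Cspg4 had an adjusted p of 0.0602 in limma and lay above the controls on all isoproterenol arrays. The sum over 9 fibroblast markers was 127 to 169 times in isoproterenol arrays and 152 to 161 times in control arrays, although 4 of the 9 fell and 1 rose. Endothelial sums were 14.1 to 15.6 times in isoproterenol arrays against 15.1 to 16.9 in control arrays, macrophage sums 16.5 to 21.4 against 13.9 to 23.0, and epicardial sums 9.80 to 17.0 against 7.32 to 8.11. Of the 3 epicardial markers measured, 0 rose and 1 (Aldh1a2) fell, with a median change of -0.21, while Upk1b had a change of 0.94 and an adjusted p of 0.0501. Every measured marker was well above background on at least 3 arrays, as was every row used here. The part of other cell types in the changes below was not tested.

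Of the 8 genes, Gata4 rose, Hand2 and Mef2a fell, and Gata6, Nkx2-5, Tbx5, Hdac5 and Hdac9 did not pass the threshold. The 3 genes that passed compare with a background of 16.2% of all genes, made up of 10.2% higher and 5.96% lower. Among the 12304 genes well above background on all 6 arrays, 4250 changed when the fit used these genes alone. In that fit 3 of the 5 genes of this set among them changed. With slide as a block, 2 of the 8 genes passed, Hand2 and Mef2a, both lower, against 7.34% of all genes in either direction and 3.65% lower. Within slide 1 alone 1 gene passed, Hand2, against 5.3% of all genes. The median change of the 8 was -0.79 on the log2 scale, and -0.11 within slide 1, whereas the median of all genes was 0.07, and 0.11 within slide 1. The groups did not overlap for 5 of the 8 genes, of which 1 lay above and 4 lay below the controls. Over all genes 41.4% did not overlap, 25.6% above and 15.8% below. Among all 3224 genes that changed, 63.2% were higher, a share that became 41.2% when the 75th percentile was taken over probes detected on all arrays, and 73.7% after normexp background correction, a model that subtracts background while keeping signals above 0. The median change of all genes moved with these settings to -0.17 and 0.36. Relative to the median of all genes, Gata4 differed by 1.25, Hand2 by -1.99 and Mef2a by -0.88 on the log2 scale, and by 0.84, -1.77 and -1.20 after normexp.

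**Figure D1:**
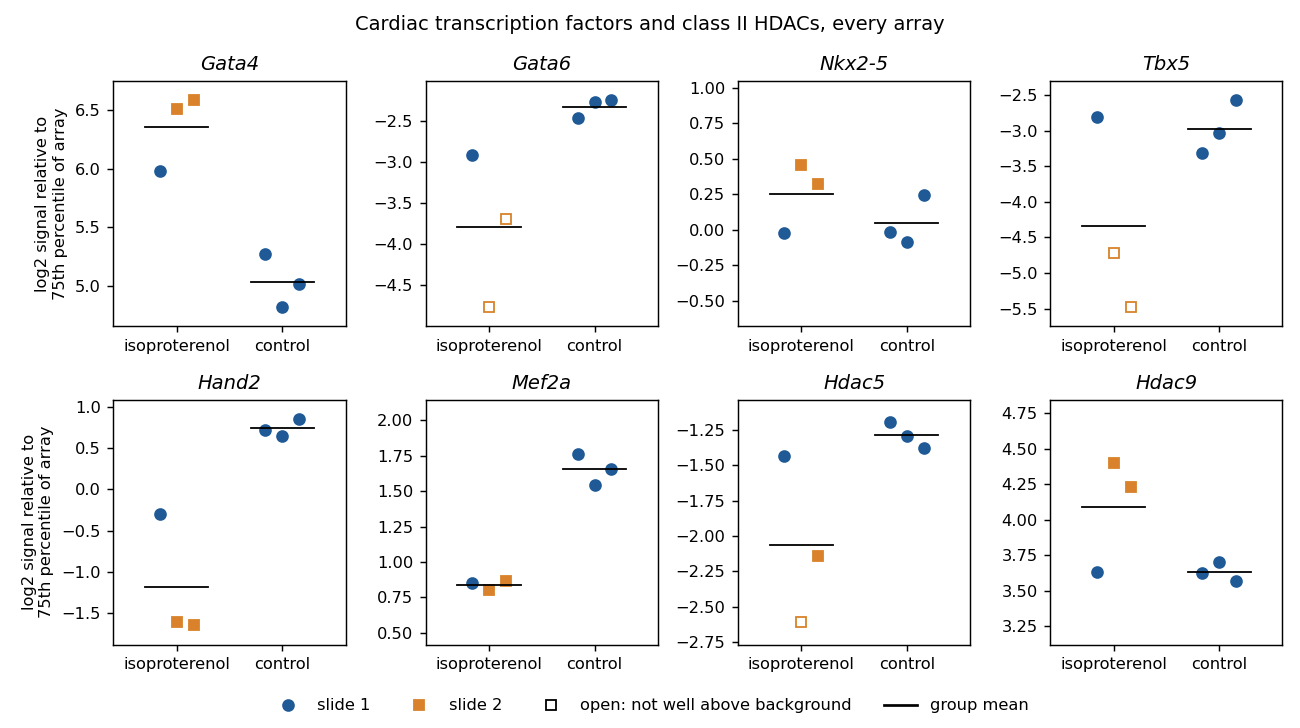
Each panel plots 1 gene, with the log2 signal relative to the 75th percentile of the array on the vertical axis and the isoproterenol and control arrays side by side. Points are single arrays, circles for slide 1 and squares for slide 2, open where the signal was not well above background, and lines are group means. Gata4 lay above the controls on all 3 isoproterenol arrays and Hand2 and Mef2a below them, while Gata6 and Tbx5 have open squares on both slide 2 arrays.

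Gata4, a zinc finger factor that binds GATA sequences and takes part in the hypertrophic response, gave 5.98, 6.51 and 6.58 in isoproterenol replicates 1 to 3, against 5.27, 4.83 and 5.02 in control replicates 1 to 3. Every isoproterenol array lay above every control array. Gata4 rose by 1.32 ± 0.23 on the log2 scale (SE, n = 3 each), a 2.49-fold change, with an adjusted p of 0.0143 in limma, and its change lay at the 95.6th percentile of all genes. Within slide 1 the difference was 0.94, with an adjusted p of 0.0800, and with slide as a block the adjusted p was 0.0590. It was 0.0756 without control replicate 2, 0.0763 without control replicate 3, 0.0512 without isoproterenol replicate 2 and 0.0592 without isoproterenol replicate 3. The size depended on the scaling. The change was 0.91 with quantile normalization and with the deposited table, and 1.38 with median scaling, and passed each time. In scanner units Gata4 gave 37737 in isoproterenol replicate 1, 18822 and 23857 in replicates 2 and 3, and 16529 to 21133 in controls. The 75th percentile was 207 and 249 units on the slide 2 arrays, against 547 to 599 on slide 1. The signal was well above background on all arrays.

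Hand2, a basic helix-loop-helix factor needed for the growth of the right ventricle in mouse embryos, gave -0.30, -1.60 and -1.64 in isoproterenol replicates 1 to 3, against 0.72, 0.65 and 0.85 in control replicates 1 to 3. All isoproterenol arrays lay below all controls, and the slide 2 arrays lay below the slide 1 array. In scanner units the signal was 488 in isoproterenol replicate 1, 68.1 and 79.7 in replicates 2 and 3, and 901 to 996 in controls. It was well above background on all arrays. Hand2 fell by 1.92 on the log2 scale, with an SE of 0.37 and n = 3 each, to a level 3.79-fold below that of controls (limma, adjusted p = 0.0190). Within slide 1 the change was -1.04, or 2.05-fold, with an adjusted p of 0.0450, and the block for slide gave 0.0275. After normexp the change was -1.41, with an adjusted p of 0.0105. Leaving out control replicate 1, 2 or 3 gave adjusted p-values of 0.0654, 0.0774 and 0.0879, and leaving out isoproterenol replicate 2 or 3 gave 0.0630 and 0.0694. The promoter shown above holds the GATA core match in capitals.

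Mef2a, a MADS-box factor that activates sarcomere and metabolic genes in muscle, gave 0.85, 0.80 and 0.87 in isoproterenol replicates 1 to 3, against 1.76, 1.54 and 1.65 in control replicates 1 to 3. The isoproterenol arrays lay close together, on both slides, and below all controls. Mef2a fell by 0.81 on the log2 scale, with an SE of 0.16 and n = 3 each, to a level 1.76-fold below that of controls (limma, adjusted p = 0.0190). Within slide 1 the change was -0.80, or 1.75-fold, with an adjusted p of 0.0622, and with slide as a block the adjusted p was 0.0470. After normexp it was -0.83, with an adjusted p of 0.0136. Leaving out control replicate 1, 2 or 3 gave 0.0719, 0.0801 and 0.104, and leaving out isoproterenol replicate 2 or 3 gave 0.0603 and 0.0705. The signal was well above background on all arrays.

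Gata6, the other GATA factor of this set, gave -2.92, -4.76 and -3.69 in isoproterenol replicates 1 to 3, against -2.46, -2.27 and -2.25 in control replicates 1 to 3. The groups did not overlap, and the slide 2 arrays were the lowest. The change was -1.46 ± 0.44 (SE, n = 3 each) with an adjusted p of 0.0623 in limma. It was -0.59 within slide 1, with an adjusted p of 0.105, and -0.10 after normexp, with an adjusted p of 0.681. In scanner units the signal was 7.65 and 19.3 in isoproterenol replicates 2 and 3, where it was not well above background. It was 79.3 in isoproterenol replicate 1, and 99.4, 121 and 116 in control replicates 1 to 3. The change passed the threshold under 4 of the 20 other settings: an intensity trend in the model (adjusted p = 0.0492), array weights, a common floor for dim signals (-0.44, adjusted p = 0.0267), and leaving out isoproterenol replicate 1 (-1.90, adjusted p = 0.00563).

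Tbx5, a T-box factor that acts together with Gata4 and Nkx2-5 on cardiac promoters, gave -2.81, -4.72 and -5.47 in isoproterenol replicates 1 to 3, against -3.32, -3.04 and -2.58 in control replicates 1 to 3. The groups overlapped, since isoproterenol replicate 1 lay between the controls. The change was -1.36 ± 0.64 (SE, n = 3 each), with an adjusted p of 0.176 in limma and a 95% interval from -2.88 to 0.17. It was 0.17 within slide 1 and 0.21 after normexp, so its sign turned in both. Tbx5 passed with array weights (-2.63, adjusted p = 7.5e-05) and without isoproterenol replicate 1 (-2.12, adjusted p = 0.00362), and its change was -0.79 without isoproterenol replicate 3. The slide 2 arrays, isoproterenol replicates 2 and 3, were not well above background for Tbx5.

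Nkx2-5, the NK2 homeobox factor that marks cardiac progenitors, gave -0.02, 0.45 and 0.32 in isoproterenol replicates 1 to 3, against -0.01, -0.08 and 0.25 in control replicates 1 to 3. The groups overlapped on a gene that was well above background on all arrays. The difference was 0.20 ± 0.20 (SE, n = 3 each), with an adjusted p of 0.486 in limma and a 95% interval from -0.27 to 0.68. Within slide 1 it was -0.07, with an adjusted p of 0.817.

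Hdac5, a class IIa deacetylase whose loss in mice makes the heart grow more under load, gave -1.44, -2.61 and -2.14 in isoproterenol replicates 1 to 3, against -1.19, -1.29 and -1.38 in control replicates 1 to 3. All isoproterenol arrays lay below the controls, isoproterenol replicate 1 by a small margin. The change was -0.77 ± 0.30 (SE, n = 3 each), with an adjusted p of 0.118 in limma. It was -0.15 within slide 1, with an adjusted p of 0.546, and -0.24 after normexp, with an adjusted p of 0.217. Hdac5 passed with array weights (-0.82, adjusted p = 0.000359) and without isoproterenol replicate 1 (-1.09, adjusted p = 0.00506), and its change was -0.50 without isoproterenol replicate 2. The signal was not well above background in that replicate.

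Hdac9, a related class IIa deacetylase that also represses MEF2 targets, gave 3.63, 4.40 and 4.23 in isoproterenol replicates 1 to 3, against 3.62, 3.70 and 3.56 in control replicates 1 to 3. The groups overlapped, with isoproterenol replicate 1 among the controls and both slide 2 arrays above them. The difference was 0.46 ± 0.23 (SE, n = 3 each), with an adjusted p of 0.202 in limma and a 95% interval from -0.10 to 1.02. Within slide 1 it was -0.00044, with an adjusted p of 0.999. Hdac9 passed with array weights (0.63, adjusted p = 0.000459) and without isoproterenol replicate 1 (0.69, adjusted p = 0.00714), and its change was 0.30 without isoproterenol replicate 2.

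**Figure D2:**
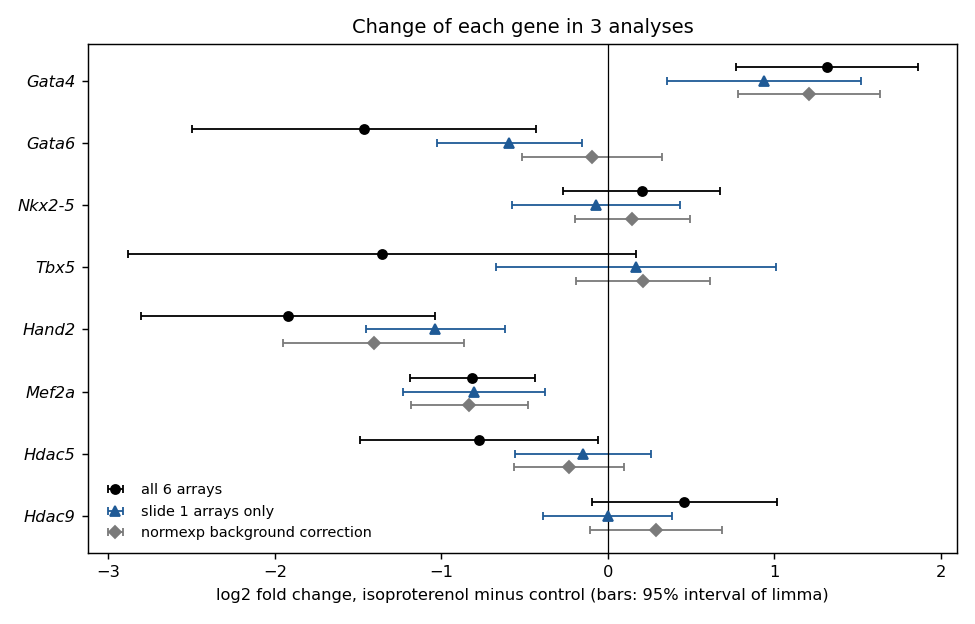
The horizontal axis gives the log2 fold change, isoproterenol minus control, of each gene, and bars are 95% intervals from limma. Black circles use all 6 arrays, blue triangles the slide 1 arrays only and grey diamonds normexp background correction. The Mef2a changes lie together at -0.81, -0.80 and -0.83, whereas those of Gata6 run from -1.46 to -0.10 and those of Tbx5 lie on both sides of 0.

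Of the 8 genes, 5 were well above background on all 6 arrays, as were 61.8% of all genes, and Gata4, Hand2 and Mef2a were among these 5. Gata6 and Tbx5 were not well above background on either slide 2 array, as were 28.2% of all genes. With slide 1 alone the sign was the same as with all arrays for 5 of the 8 genes, namely Gata4, Gata6, Hand2, Mef2a and Hdac5, and turned for Nkx2-5, Tbx5 and Hdac9.

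Of 9 measured relatives of these genes, out of 12 listed, 1 fell and 8 did not pass the threshold, against 16.2% changed among all genes. Their median change was 0.05, and -0.19 within slide 1. This list and the lists below were chosen with earlier results of these data known. The counts of these lists against all genes are therefore a description and not a test. Gata5, a GATA factor of the early heart, gave -2.52, -3.10 and -2.89 in isoproterenol replicates 1 to 3, against -1.52, -1.52 and -1.31 in control replicates 1 to 3. All isoproterenol arrays lay below the controls, and Gata5 fell by 1.39 on the log2 scale (SE 0.20, limma, adjusted p = 0.00946), with -1.07 within slide 1 and an adjusted p of 0.0332 with slide as a block. After normexp its change was -0.40, with an adjusted p of 0.129. The MEF2 relatives gave -0.15 for Mef2d and -0.38 for Mef2b, and Hand1 gave 0.18. The class II deacetylases gave 0.41 for Hdac4 and 0.27 for Hdac10, and the T-box and NK2 factors gave 0.05 for Tbx3, -0.14 for Tbx18 and 0.11 for Nkx2-6. Mef2b, Hand1 and Nkx2-6 were well above background on 1 of 3 isoproterenol arrays, and Gata5 on 2 of 3.

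Of 21 measured partners and other cardiac transcription factors, out of 31 listed, 5 rose, 4 fell and 12 did not pass, against 16.2% changed among all genes. Their median change was 0.56, and 0.29 within slide 1. Myocd, a coactivator of serum response factor (Srf), gave 3.37, 3.93 and 4.10 in isoproterenol replicates 1 to 3, against 2.32, 2.35 and 2.50 in control replicates 1 to 3. Myocd rose by 1.41 ± 0.23 (limma, adjusted p = 0.0118), with 0.98 within slide 1, where the block for slide gave an adjusted p of 0.0332. Srf itself had a change of 0.23 ± 0.19 and an adjusted p of 0.392. The GATA cofactors Zfpm2 (1.11) and Zfpm1 (0.73) rose, as did Cited2 (1.34), a coregulator that binds the coactivators CBP and p300, and Smarcd3 (1.33), a chromatin remodelling subunit. Within slide 1 the changes were 0.54 for Zfpm2, 0.61 for Zfpm1, 0.68 for Cited2 and 1.14 for Smarcd3. Among homeobox genes, Irx4, Hopx, Irx5 and Prox1 fell, with log2 changes of -2.19, -1.32, -0.88 and -0.88 in that order, and -2.16, -0.76, -1.13 and -0.52 within slide 1. Irx4, known for its ventricular expression, gave 2.79, 2.83 and 2.66 in isoproterenol replicates 1 to 3, against 4.55, 5.24 and 5.08 in control replicates 1 to 3. With slide as a block, against 7.34% of all genes, 1 rose (Myocd) and 3 fell, Irx4, Irx5 and Smyd1, of which Smyd1 was named after its values were seen and had not passed without the block.

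Of 22 measured kinases, 14-3-3 proteins and other genes of class II HDAC export, out of 25 listed, 3 rose, 1 fell and 18 did not pass, a share near the 16.2% changed among all genes. Their median change was 0.22, and -0.02 within slide 1. Sik1, a salt-inducible kinase that can phosphorylate class IIa HDACs, gave -2.58, -2.31 and -1.98 in isoproterenol replicates 1 to 3, against -5.46, -5.60 and -5.60 in control replicates 1 to 3. Sik1 rose by 3.26 ± 0.20 (limma, adjusted p = 0.00148), with 2.98 within slide 1 and 1.67 after normexp, and 2 of 3 control arrays were well above background. With dim signals set to a common floor the change of Sik1 was 0.48, with an adjusted p of 0.142. Xpo1, the nuclear export receptor, rose by 1.10 ± 0.16, with 0.97 within slide 1. Dnajb5, a chaperone that binds Hdac4, rose by 1.82 ± 0.48, with 1.64 within slide 1. Camk2d, a calcium-dependent kinase that acts on class IIa HDACs, fell by 1.56 (SE 0.26), with -1.09 within slide 1. With slide as a block Sik1, Xpo1 and Camk2d passed.

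Of 12 measured other deacetylases and corepressors, out of 16 listed, 2 rose, 1 fell and 9 did not pass, against 16.2% changed among all genes. Their median change was -0.15, and -0.25 within slide 1. Hdac11, the class IV deacetylase, gave 0.46, 0.21 and -0.18 in isoproterenol replicates 1 to 3, against 2.27, 2.88 and 2.50 in control replicates 1 to 3. Hdac11 fell by 2.39 (SE 0.24, limma, adjusted p = 0.00410) on the log2 scale, and its change within slide 1 was -2.10. Hdac1, a class I deacetylase, rose by 1.20 ± 0.28, and Sirt7, a sirtuin, by 1.12 ± 0.25. Within slide 1 their changes were 0.59 and 0.58, and with slide as a block neither passed.

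Of 25 tested genes known as targets of these factors, out of 27 listed, 5 rose, 6 fell and 14 did not pass, against 10.2% higher and 5.96% lower among all genes. Their median change was 0.34, and 0.09 within slide 1. Because this list too was chosen with earlier results known, its counts are no test of these targets. The natriuretic peptide genes gave 8.71, 9.95 and 9.59 for Nppa in isoproterenol replicates 1 to 3, against 8.36, 7.05 and 7.56 in control replicates 1 to 3. Nppa rose by 1.76 ± 0.43 (limma, adjusted p = 0.0375), with 1.05 within slide 1 and an adjusted p of 0.25 with slide as a block. Nppb gave 7.11, 8.13 and 8.04 in isoproterenol replicates 1 to 3, against 6.43, 3.70 and 4.39 in control replicates 1 to 3, and rose by 2.92 ± 0.69, with 2.28 within slide 1. Both peptides lay above the controls on all isoproterenol arrays, and their controls differed widely among themselves.

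Among the other targets Xirp2, an actin-binding protein under control of MEF2 factors in the mouse heart, rose by 3.35 ± 0.54, and Csrp3, a muscle LIM protein, by 1.53 ± 0.32. Myh6, the alpha myosin heavy chain, rose by 1.23 ± 0.23, while Myh7, the beta chain, had a change of 0.34 ± 0.22 and an adjusted p of 0.305. Within slide 1 the changes were 2.57 for Xirp2, 0.97 for Csrp3, 0.82 for Myh6 and 0.13 for Myh7. Myom2, which encodes a protein of the sarcomeric M-band, gave -1.12, -0.90 and -0.88 in isoproterenol replicates 1 to 3, against 4.08, 4.62 and 4.42 in control replicates 1 to 3, and fell by 5.34 (SE 0.20, limma). Hrc, which binds calcium inside the sarcoplasmic reticulum, also fell (-2.83 on the log2 scale), as did Ppargc1a (-1.97), a coactivator of mitochondrial genes, Ckm (-1.96), the muscle creatine kinase, and Mb (-1.18), which encodes myoglobin. Within slide 1 the changes were -5.50 for Myom2, -2.72 for Hrc, -2.16 for Ppargc1a, -1.83 for Ckm and -1.59 for Mb. With slide as a block 0 targets rose and 5 fell, against 7.34% of all genes changed and 3.65% lower, and these 5 were Myom2, Hrc, Ppargc1a, Ckm and Mb.

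**Figure D3:**
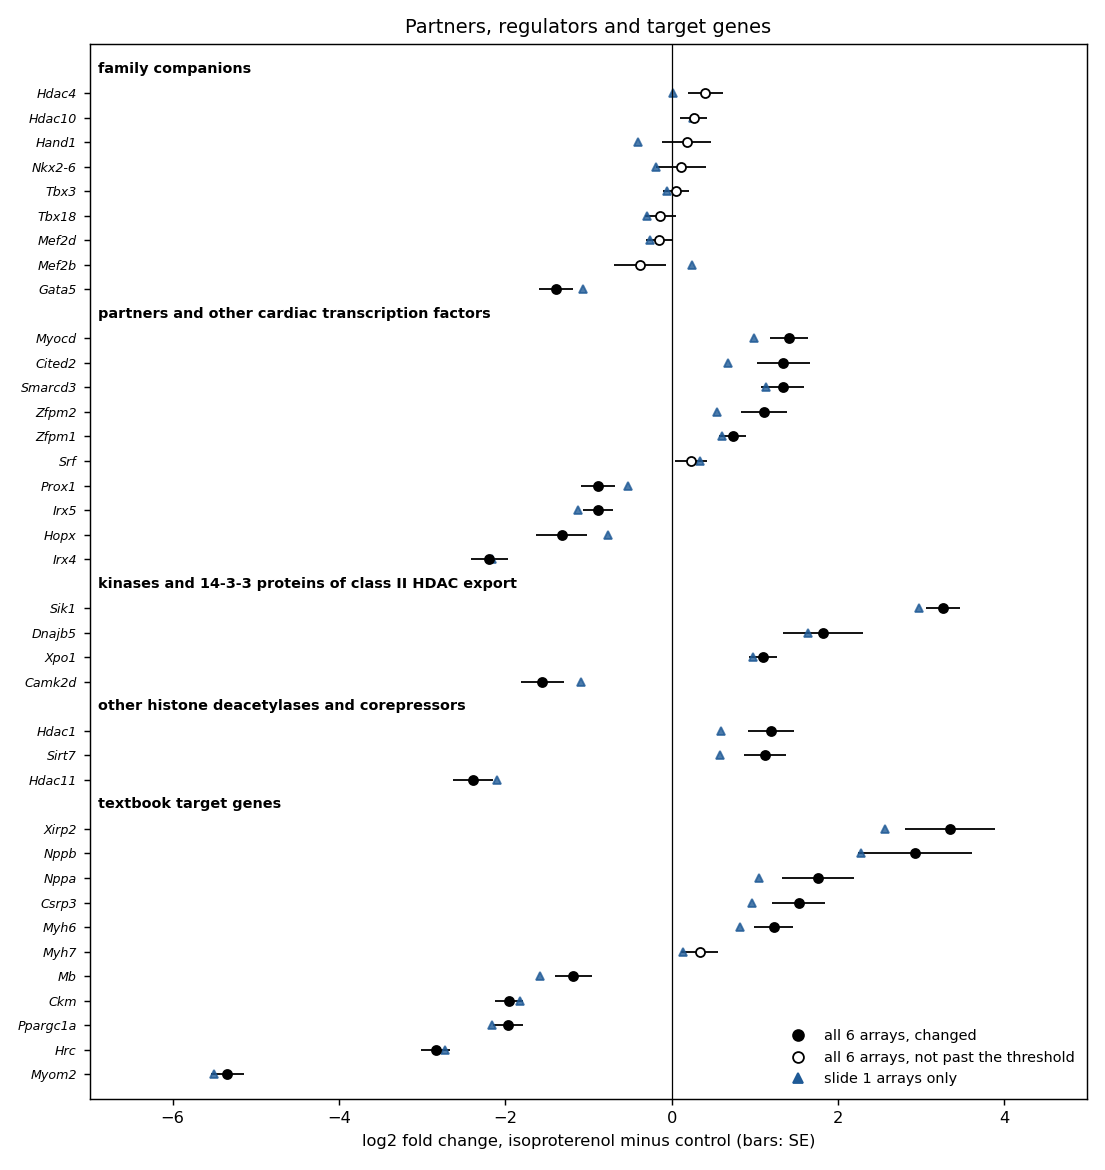
The horizontal axis gives the log2 fold change, isoproterenol minus control, of the named relatives, partners, export genes, deacetylases and targets, grouped by list. Circles with SE bars use all 6 arrays, filled where the gene changed, and blue triangles use slide 1 only. Sik1 at 3.26 (0.48 with the common floor), Xirp2 at 3.35 and Myom2 at -5.34 lie farthest from 0, and the triangles of Nppa and Cited2 lie nearer to 0 than their circles.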

How the data were processed

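Isoproterenol and control cultures were compared on 1-colour Agilent arrays. The scanner files were deposited as linear intensity values, read with Agilent Feature Extraction 11.0.1.1 per the file headers. The authors deposited a separate table of mRNA values on a log2 scale, close to quantile-normalized scanner values: 95% of values differed by less than 0.00228 on every slide 1 array, by less than 0.454 in isoproterenol replicate 2 and by less than 0.230 in isoproterenol replicate 3. Its normalization tool was not given in the sources used here. Its rows carry transcript identifiers and the scanner files probe numbers, so rows were matched to probes by their values on the slide 1 arrays, and 20628 of 20734 rows matched, including all 8 rows of the genes described. A RefSeq table of assembly GRCr8 named 13956 of 14757 RefSeq rows, while 5977 Ensembl rows stayed unnamed.

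From the scanner values, log2 of the processed signal minus the 75th percentile of each array's non-control probes was computed, without outlier-marked spots. Each gene was represented by its brightest row. Every matched row was well above background on at least 3 arrays, which was the filter, and 18 of 19931 genes were left out because all spots of the probe were marked on an array. R 4.3.3 and limma 3.58.1 (lmFit, eBayes, two-sided, Benjamini-Hochberg over all genes) gave the tests. No spot was saturated, and the number of arrays, 6, limits precision. The genes and lists were chosen with earlier results of these data known. Named genes were every gene of the set and its relatives, the 5 largest passing changes in each direction of each other list, and Nppa, Nppb, Myh6, Myh7 and Srf. A gene of the partner list is not reported here and is not in its counts. Alternatives covered scaling, background correction, the deposited table, filters, slide, replicate block, the row of a gene, the model and each array left out. The common floor for dim signals was chosen after seeing the data. Normexp used the median signal with an offset of 50, as the files hold no mean signal.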

Additional observations from a re-analysis of the deposited data

How the results depend on the processing

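All 8 genes were recomputed under 20 alternatives. The 3 genes that passed became 1 gene (Hand2) with slide 1 only and 1 (Hand2) with the replicate block, 7 with array weights, and 0 to 7 when arrays were left out in turn, and the rows of the table gave the same counts. The value of 7 came without isoproterenol replicate 1, which leaves the groups on different slides, and with the common floor Hand2 had an adjusted p of 0.0606 and Sik1 one of 0.142. Of the named genes, 11 lost their call with that floor, 10 of them outside the 8. Among these 11 the change itself moved for Sik1, to 0.48, and for Dnajb5, to 1.55. For the others, Hand2 included, the change was the same with the floor and only the adjusted p rose. Of all genes, 3224 changed, against 1461 with slide as a block, 1055 with slide 1 only, 1467 with the replicate block, 14573 with array weights, and 371 to 10386 when arrays were left out. Array weights were estimated without convergence and gave isoproterenol replicate 1 a weight of 0.0906. Replicate numbers were not taken to pair the samples. Deviations of same-numbered samples from their group means correlated at 0.0074, 0.0524 and -0.0217, and not every sample correlated best with its own number. Deviations in the isoproterenol group also hold the difference between slides, so these values cannot decide whether samples were paired. The counts of changed genes among relatives, partners, export genes, deacetylases and targets were 1, 9, 4, 3 and 11. They became 1, 4, 3, 1 and 5 with slide as a block, 1, 4, 2, 1 and 5 with slide 1 only, 1, 3, 3, 1 and 6 with the replicate block and 5, 19, 18, 10 and 21 with array weights. With arrays left out they lay between 0 and 3, 1 and 15, 1 and 16, 1 and 6, and 4 and 17 in that order.

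Where a sign turned among the genes named here, the gene passed neither with the setting first described nor with the one that turned it, although Tbx5, Hdac9, Hand1, Mef2b and Srf passed with array weights. With slide 1 only, and equally with slide as a block, Nkx2-5 gave -0.072, Tbx5 0.17, Hdac9 -0.00044, Hand1 -0.40, Mef2b 0.25, Nkx2-6 -0.19 and Tbx3 -0.059. With the 75th percentile over probes detected on all arrays, Nkx2-5 gave -0.037, Hand1 -0.060, Nkx2-6 -0.12, Tbx3 -0.19 and Srf -0.00470. Normexp gave 0.21 for Tbx5, 0.46 for Mef2b and -0.17 for Tbx3. Quantile normalization and the deposited table both gave -0.32 for Nkx2-6, -0.19 for Tbx3 and -0.24 for Myh7. With arrays left out in turn Nkx2-6 ranged between -0.13 and 0.31, and was -0.090 without control replicate 3 and -0.13 without isoproterenol replicate 2. The cause was not tested. Nkx2-6, Hand1 and Mef2b had no value with the common floor, since all their arrays lay at it. Low signal over background on slide 2 limits what can be said of Gata6, Tbx5 and Hdac5. Hand2 was also dim there, at 68.1 and 79.7 scanner units, though well above background.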
